A study of Mus musculus with 24 samples.

Results

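Polysome-bound mRNA was compared between rpS6P-/- mice and their wild-type littermates in both parts of the striatum at once, to find transcripts on which the genotype acted differently in the nucleus accumbens (Acb) and in the dorsal striatum (DS). The 12 libraries used are all those made from heavy polysomal fractions, out of 24 libraries in the series. They form 4 groups of 3 libraries, wild-type and rpS6P-/- in the Acb and wild-type and rpS6P-/- in the DS. In rpS6P-/- mice every phosphorylatable serine of ribosomal protein S6 is replaced by alanine in the endogenous gene, in all cells, on a mixed C57Bl/6/Sv129/ICR background that the controls share. The mice were of both sexes, their age is not given in the sources used here, and each replicate is a pool of several mice. Whether the Acb and DS libraries of a number come from the same mice is not stated. Read counts per gene cannot show a change of single bases, so they do not check the genotype.

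Ribosomal protein S6 is a component of the small ribosomal subunit and the target of the S6 kinases, which act downstream of mTOR, and of RSK kinases. Its phosphorylation rises with neuronal activity and is widely used to mark active cells. In a sucrose gradient, mRNAs sediment with the number of ribosomes that they carry, and the heavy fractions sequenced here hold mRNAs with more than 4 ribosomes. A coding sequence can only carry as many ribosomes as it has room for, so mRNAs with very short coding sequences load few ribosomes and lie near the lighter edge of such a fraction.

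Each gene was given 3 values on the log2 scale, which are the effect of the genotype in the Acb (rpS6P-/- over wild-type), the same effect in the DS, and the interaction, which is the Acb effect minus the DS effect. An interaction below 0 means that the level in rpS6P-/- mice, relative to wild-type, was lower in the Acb than in the DS. Levels are given as CPM, which are read counts scaled to the size and composition of each library, and are comparable between libraries but not between genes. Libraries held 11109431 to 34703044 reads assigned to genes.

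Markers of the tissue were present in all 4 groups. Summed medium spiny neuron markers ranged from 6096 to 7808 CPM over the 12 libraries, and genes that mark the accumbens by position summed to 936 to 1497 CPM in the Acb and to 248 to 321 CPM in the DS. The 6 markers of cortical excitatory neurons summed to 69.4 to 223 CPM in the Acb and to 819 to 1102 CPM in the DS. In the Acb, 6 choroid plexus markers summed to 57.0 to 79.9 CPM in wild-type and 53.0 to 59.4 CPM in rpS6P-/- libraries, which overlap. In the DS they summed to at most 17.1 CPM in wild-type and to 20.6 to 21.2 CPM in rpS6P-/- libraries, without overlap. None of the genes in these lists was at 0 in all libraries. Oligodendrocyte markers summed to 5055 to 6452 CPM in wild-type and 5269 to 5597 CPM in rpS6P-/- libraries of the Acb, and to 4116 to 4490 CPM and 3573 to 5477 CPM in the DS. One library stood apart, Acb rpS6P-/- replicate 3, in which 3.40% of reads fell on transcripts under 1000 bases, against 4.71% to 7.67% in the others. Values without it stand beside some of the results and, for further classes, in the closing sections.

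The interaction was tested for 16880 genes with at least 15 reads over the 12 libraries. With edgeR and Benjamini-Hochberg adjustment, 1 gene passed an adjusted p of 0.05, which is 0.00592% of those tested. At an unadjusted p under 0.05 there were 1265 genes with an interaction below 0 (7.49%) and 1069 with an interaction above 0 (6.33%). DESeq2 passed 236 genes at an adjusted p of 0.05 (1.40%), 154 below 0 and 82 above 0. Within each region edgeR passed 0 genes for the effect of the genotype, with 2923 genes at an unadjusted p under 0.05 in the Acb (17.3%) and 1428 in the DS (8.46%), while DESeq2 passed 764 in the Acb and 1 in the DS. The number of genes that pass an adjusted p depends strongly on the method, so the other genes are described by their values and by counts at the unadjusted threshold, read against the shares just given.

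Most genes at the unadjusted threshold had effects of opposite sign in the 2 regions. Of these 2334 genes, 2199 (94.2%) lay below 0 in one region and above 0 in the other, where 8402 of all 16880 genes (49.8%) did. A difference between 2 effects is more likely to be large when they have opposite signs, so this share is a description of the genes and not a test. Below 0 in the Acb and above 0 in the DS were 1206 genes (7.14% of those tested), and 993 genes (5.88%) showed the reverse. Over the 12269 genes with at least 50 reads on average, the 2 effects had a Spearman correlation of -0.06, and each rests on libraries of its own. A stricter count took genes whose 3 rpS6P-/- and 3 wild-type libraries did not overlap in either region. It held 105 genes (0.856% of 12269) lower in rpS6P-/- mice in the Acb and higher in the DS, and 77 (0.628%) higher in the Acb and lower in the DS. Without Acb rpS6P-/- replicate 3 the counts at the unadjusted threshold were 847 below 0 and 576 above 0.

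*Ndufa3* (Entrez 66091), an accessory subunit of respiratory complex I, was the gene that passed. Its level was 122, 94.8 and 69.6 CPM in the 3 wild-type libraries of the Acb and 57.2, 39.9 and 30.0 CPM in the 3 rpS6P-/- libraries. In the DS it was 101, 58.3 and 84.9 CPM in wild-type and 128, 136 and 206 CPM in rpS6P-/- libraries. The genotypes did not overlap in either region and lay in opposite order. The Acb effect was -1.17 ± 0.24 (SE), the DS effect 0.95 ± 0.24, and the interaction -2.12 ± 0.34 (adjusted p = 0.0225 in edgeR and 6.65e-05 in DESeq2). The interaction was -1.93 without Acb rpS6P-/- replicate 3 (adjusted p = 0.0501 in edgeR), and it also lost the call without Acb wild-type replicate 1 (-1.91, adjusted p = 0.0931), DS wild-type replicate 2 (-1.97, 0.0568), DS rpS6P-/- replicate 2 (-2.22, 0.0759) or DS rpS6P-/- replicate 3 (-1.92, 0.164). In whole lysates, the starting material of such gradients, its interaction was -0.48.

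**Figure D1:**
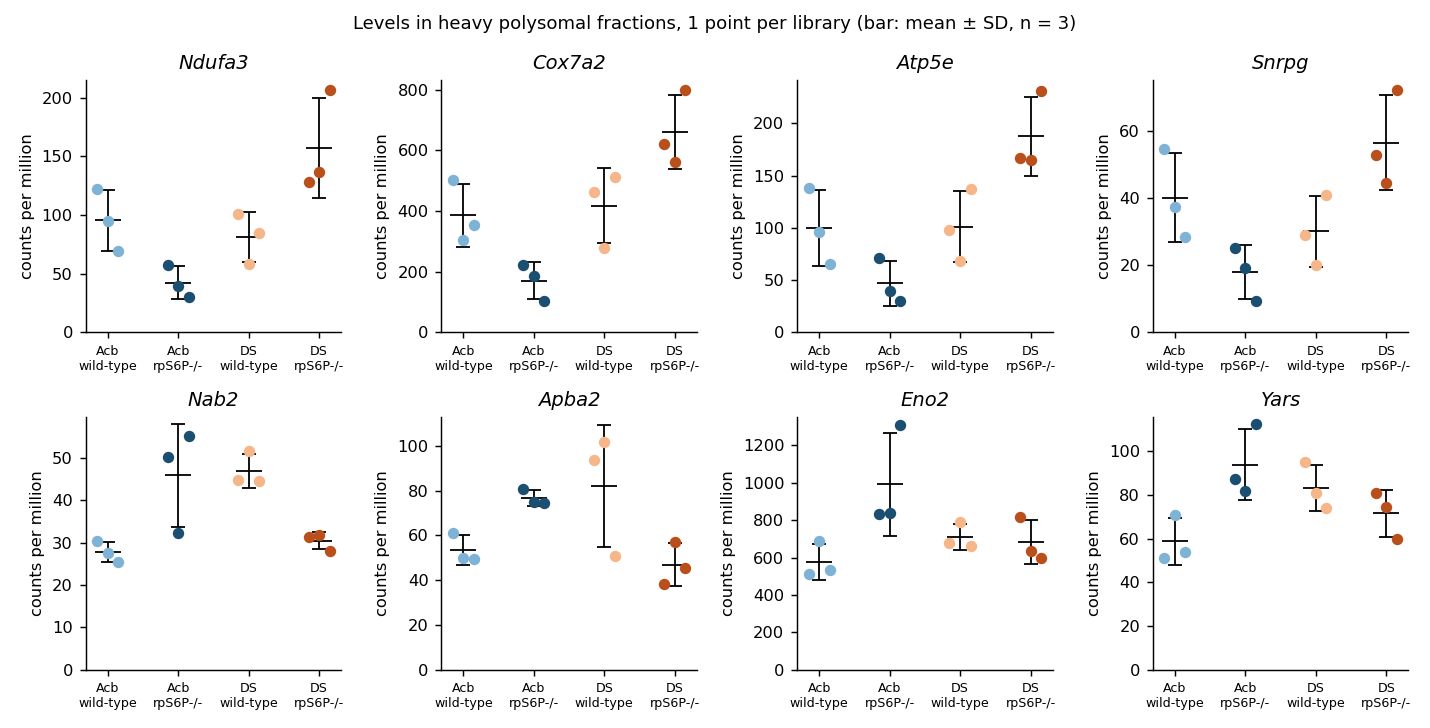
Level in CPM (vertical axes, from 0) of 8 genes in the 12 heavy polysomal libraries, with 1 point per library in replicate order and the mean ± SD of the 3 libraries of each group. *Ndufa3*, *Cox7a2*, *Atp5e* and *Snrpg* are lower in rpS6P-/- mice in the Acb and higher in the DS, and *Nab2* and *Apba2* show the reverse order.

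Most of the 12 genes with the lowest p below 0 have coding sequences of 156 to 252 bases without the stop codon, the exceptions being *Sat1* (513 bases), *Nkain2* (624) and *Ido1* (1221). The coding sequences of *Ndufa3* and of 3 other subunits of the respiratory chain among the 12 genes with the lowest p are shown to make their size visible. They are written 5′ to 3′ from the GENCODE M21 transcripts on GRCm38, with the start and stop codon in capitals. *Ndufa3* lies on the plus strand (chr7:3617398-3620092), *Cox7a2* (chr9:79755547-79759657), *Atp5e* (chr2:174462503-174463996) and *Usmg5* (chr19:47085958-47086220) on the minus strand, and the positions span the introns between first and last coding base.
Ndufa3: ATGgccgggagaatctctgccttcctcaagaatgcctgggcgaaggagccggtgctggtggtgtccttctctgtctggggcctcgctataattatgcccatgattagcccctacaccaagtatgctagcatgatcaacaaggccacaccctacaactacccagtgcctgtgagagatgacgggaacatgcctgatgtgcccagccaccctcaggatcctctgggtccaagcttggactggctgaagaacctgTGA
Cox7a2: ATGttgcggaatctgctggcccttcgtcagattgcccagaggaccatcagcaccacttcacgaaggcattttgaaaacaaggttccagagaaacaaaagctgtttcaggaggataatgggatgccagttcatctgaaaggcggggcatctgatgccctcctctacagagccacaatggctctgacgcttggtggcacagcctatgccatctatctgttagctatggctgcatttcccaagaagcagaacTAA
Atp5e: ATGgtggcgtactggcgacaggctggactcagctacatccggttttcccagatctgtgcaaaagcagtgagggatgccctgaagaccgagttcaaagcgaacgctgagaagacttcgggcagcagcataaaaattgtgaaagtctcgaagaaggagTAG
Usmg5: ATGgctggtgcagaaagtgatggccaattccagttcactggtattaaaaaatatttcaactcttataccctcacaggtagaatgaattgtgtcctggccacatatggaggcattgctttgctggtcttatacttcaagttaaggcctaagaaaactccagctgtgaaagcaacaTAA
These sequences hold 255, 252, 159 and 177 bases with the stop codon, in transcripts of 515, 659, 421 and 362 bases. The median transcript over all genes tested was 2926 bases long.

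The respiratory chain had 37 genes with an interaction below 0 at the unadjusted threshold, against 22 among the cytosolic ribosomal proteins. Complexes I to IV pass electrons to oxygen, and all of these but complex II pump protons. Complex V, the ATP synthase, uses the proton gradient to make ATP. Of 79 subunits tested from 81 listed, 37 had an interaction below 0 at the unadjusted threshold (46.8%, against 7.49% of all genes) and 5 above 0 (6.33%), and 61 lay below 0 in all. The median was -0.67 for the Acb effect, 0.01 for the DS effect and -0.61 for the interaction, where the median interaction of all genes was -0.03. In 37 of the 79 the Acb effect lay below 0 and the DS effect above 0, as in 25.9% of all genes, and 9 did not overlap in either region, as 0.856% of the more abundant genes did not. Between regions, the median level in the Acb relative to the DS was -0.12 on the log2 scale in wild-type mice and -0.82 in rpS6P-/- mice. The class median of each library, as its deviation from the mean of the 12 libraries, was 0.21, 0.02 and -0.01 in Acb wild-type, -0.34, -0.41 and -1.10 in Acb rpS6P-/-, 0.42, -0.16 and 0.42 in DS wild-type and 0.10, 0.18 and 0.36 in DS rpS6P-/- libraries. All 3 Acb rpS6P-/- libraries lay below all others, with replicate 3 the lowest, and the DS groups overlapped. Without that replicate the median interaction was -0.39, and -0.34 for complex I alone. With a trend on transcript length removed, the median interaction of the class was -0.07. At the unadjusted threshold 22 subunits were then below 0 and 12 above 0, where 1145 and 1199 of all 16880 genes were.

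Complex IV, cytochrome c oxidase, had all 13 subunits below 0, with a median interaction of -1.08 and 8 subunits at the unadjusted threshold. The median was -0.85 without Acb rpS6P-/- replicate 3. *Cox7a2* was at 502, 303 and 352 CPM in wild-type and 222, 184 and 103 CPM in rpS6P-/- libraries of the Acb, and at 462, 277 and 512 CPM and 622, 561 and 798 CPM in the DS. The genotypes were fully apart in both regions, and its interaction was -1.85 ± 0.34 (adjusted p = 0.0518 in edgeR and 0.00109 in DESeq2). *Cox7c* had an interaction of -1.97 ± 0.41, *Cox6c* of -1.66 and *Cox6b1* of -1.42. In complex I, which oxidises NADH, 28 of 35 subunits lay below 0 and 16 were at the unadjusted threshold, with a median of -0.56. After *Ndufa3*, the lowest p belonged to *Ndufa1* (-2.04 ± 0.40), *Ndufv3* (-1.33 ± 0.28) and *Ndufs6* (-1.44 ± 0.31).

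Complex III and complex V split by subunit, and the medians of both lay on the other side of 0 once a trend on transcript length was removed (0.03 and 0.09). In complex III (median -1.002, 9 subunits) the small subunits *Uqcr10* (-1.51 ± 0.36) and *Uqcrh* (-1.49 ± 0.36) and 3 others had interactions below 0 at the unadjusted threshold, while the large core subunits *Uqcrc2* (0.70 ± 0.25) and *Uqcrc1* (0.60 ± 0.28) had interactions above 0. In complex V (median -0.31, 18 subunits, -0.18 without Acb rpS6P-/- replicate 3 and -0.48 without DS wild-type replicate 1), 8 had interactions below 0 and 2 above 0 at that threshold. *Usmg5*, a small ATP synthase associated protein, was at 323, 168 and 145 CPM in wild-type and 141, 90.7 and 55.8 CPM in rpS6P-/- libraries of the Acb, and at 182, 129 and 255 CPM and 327, 288 and 521 CPM in the DS. Its groups did not overlap in either region, and the interaction was -2.15 ± 0.42 (adjusted p = 0.0518 in edgeR). *2010107E04Rik*, another small ATP synthase protein, had an interaction of -2.13 ± 0.38, *Atp5e* (the epsilon subunit) of -1.98 ± 0.39 and *Atp5k* of -1.85 ± 0.40.

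**Figure D2:**
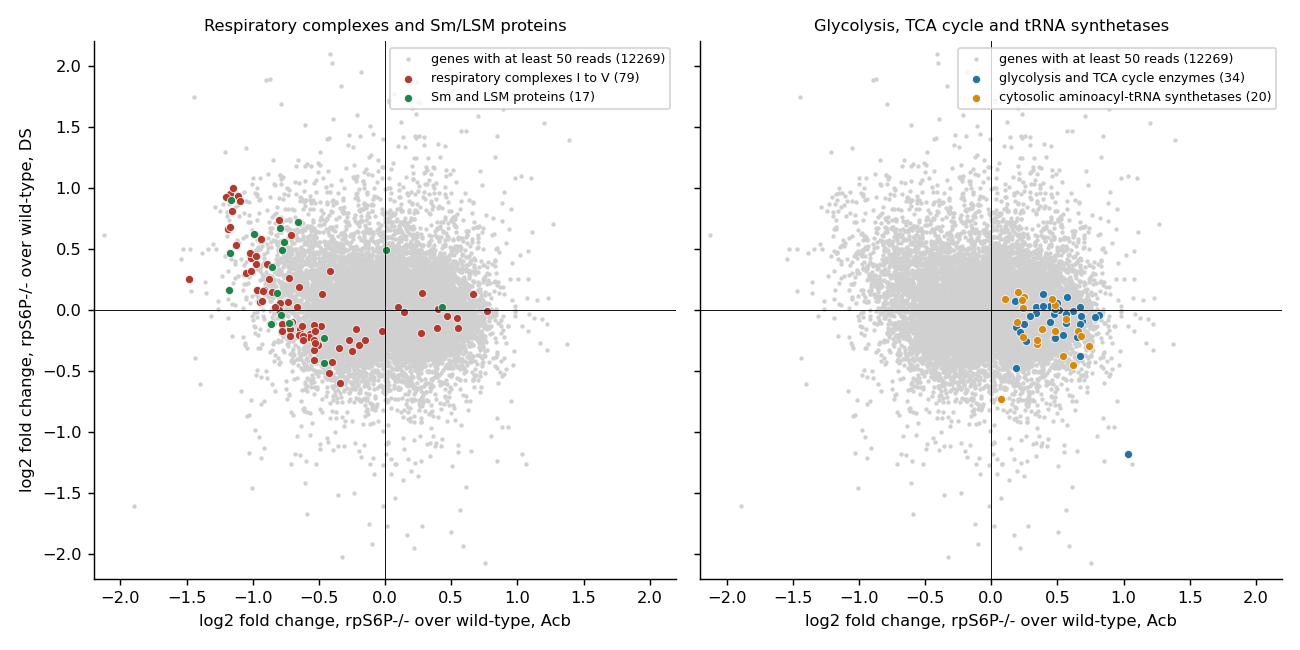
Effect of the genotype in the Acb (horizontal axis) and in the DS (vertical axis), both as log2 fold change of rpS6P-/- over wild-type in heavy polysomal fractions, for 12269 genes in grey, of which 10 lie outside the plotted range. Left, the respiratory complexes (red) and Sm and LSM proteins (green) extend into the upper left quadrant, and right, glycolysis and TCA cycle enzymes (blue) and cytosolic aminoacyl-tRNA synthetases (orange) lie to the right of 0 in the Acb.

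Other classes with many short coding sequences had median interactions below 0. The median coding length was 309 bases for Sm and LSM proteins, 438 for RNA polymerase II and 430.5 for mitochondrial import. Over all genes tested it was 1380 bases. The Sm and LSM proteins form the ring-shaped cores of the spliceosomal particles and of the mRNA decay machinery. Of these, 16 of 17 lay below 0, 11 of them at the unadjusted threshold (64.7%). The medians were -0.78 in the Acb, 0.36 in the DS and -1.21 for the interaction (-0.98 without Acb rpS6P-/- replicate 3). *Snrpg* was at 54.6, 37.5 and 28.6 CPM in wild-type and 25.3, 19.3 and 9.32 CPM in rpS6P-/- libraries of the Acb, and at 29.2, 20.2 and 41.1 CPM and 52.9, 44.7 and 72.3 CPM in the DS. It did not overlap in either region, and the interaction was -2.07 ± 0.42 (adjusted p = 0.0518 in edgeR). *Lsm6* had an interaction of -1.47 ± 0.34 and *Lsm3* of -1.32. Of 12 subunits of RNA polymerase II, 7 were below 0 at the threshold and 0 above 0, with a median of -0.70, led by *Polr2i* (-1.46) and *Polr2k* (-1.65). Of 24 components of the mitochondrial import machinery, 12 were below 0 at the threshold and 1 above 0, with a median of -0.64. Among them were *Tomm7*, a small subunit of the outer membrane translocase (-1.92 ± 0.43), and *Timm8b*, an intermembrane space chaperone (-1.72 ± 0.37), while *Tomm34*, a cytosolic co-chaperone, was at 0.73.

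Ribosomal proteins had smaller values, which lay on the other side of 0 once a trend on transcript length was removed, at 0.19 for the median of the cytosolic and 0.05 for that of the mitochondrial class. Of 80 cytosolic ribosomal proteins, 22 were below 0 at the unadjusted threshold (27.5%) and 0 above 0, with medians of -0.52 in the Acb, -0.08 in the DS and -0.34 for the interaction (-0.18 without Acb rpS6P-/- replicate 3). With the length trend removed, 2 were below 0 and 17 above 0 at that threshold. *Rpl39*, one of the smallest, had an interaction of -1.86 ± 0.39. *Rps21* was at -1.47 and *Rps28* at -1.346, but at 0.01 and 0.25 with the length trend removed. *Rps6* itself, whose coding sequence carries the substitutions, was at 379, 426 and 336 CPM in wild-type and 418, 417 and 367 CPM in rpS6P-/- libraries of the Acb, and at 396, 344 and 350 CPM and 394, 388 and 395 CPM in the DS. Its interaction was -0.03 ± 0.21, and 0.48 with the length trend removed. Of 78 mitochondrial ribosomal proteins, 13 were below 0 at the threshold and 1 above 0, with a median of -0.20 (-0.08 without Acb rpS6P-/- replicate 3, -0.13 without DS wild-type replicate 2 and -0.34 without Acb rpS6P-/- replicate 1), and *Mrpl18* (-1.40 ± 0.32), *Mrpl42* (-1.44) and *Mrps21* (-1.66) had the lowest p.

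Some small proteins with other roles also had low values, and others did not. All 3 metallothioneins, which bind zinc and copper, had interactions below 0 (*Mt1* -1.91 ± 0.48, *Mt2* -2.03 ± 0.43, *Mt3* -1.76 ± 0.41), and in the DS their genotypes did not overlap, with rpS6P-/- libraries higher. The actin-binding thymosins *Tmsb4x* and *Tmsb10* had interactions of -2.11 ± 0.44 and -1.86 ± 0.41, and they were the 2 of 7 thymosins, profilins and cofilins at the unadjusted threshold. A list of 11 genes held synucleins and BEX proteins, which are small too, and *Pcp4*. Of these 11, 2 were below 0 at that threshold, *Pcp4* among them, and 6 lay above 0. *Pcp4*, a regulator of calmodulin, was at 958, 512 and 450 CPM in wild-type and 414, 253 and 207 CPM in rpS6P-/- libraries of the Acb, and at 1262, 812 and 1563 CPM and 1758, 1919 and 2840 CPM in the DS. Its genotypes were apart in both regions, and the interaction was -1.98 ± 0.38 (adjusted p = 0.0518 in edgeR). The proteasome had a median of 0.20 over 34 subunits (0.12 without DS wild-type replicate 2, 0.38 without Acb wild-type replicate 2 and 0.48 with the transcript length trend removed), 7 above 0 and 1 below 0 at the threshold, and that 1 was its smallest subunit, *Shfm1* (-1.51 ± 0.37).

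Among the 12 genes with the lowest p below 0 were also genes outside these classes. *Sat1*, which acetylates polyamines, had an interaction of -1.62 ± 0.32, and *Nop10*, of the particles that guide pseudouridylation, of -1.97 ± 0.39. *Nkain2*, a partner of the sodium pump, was at 136, 102 and 133 CPM in wild-type and 90.8, 88.8 and 70.8 CPM in rpS6P-/- libraries of the Acb, and at 79.0, 75.8 and 89.5 CPM and 115, 118 and 142 CPM in the DS. Its genotypes did not overlap in either region (-1.18 ± 0.24, adjusted p = 0.0518 in edgeR), and its transcript is 3760 bases long. *Ido1*, an enzyme of tryptophan breakdown, had an interaction of -1.48 ± 0.30.

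Signalling genes of striatal neurons were mixed. Of 19 tested members of cAMP and DARPP-32 signalling, 4 were below 0 at the unadjusted threshold and 1 above 0, with a median of -0.10. *Gng7*, the G protein gamma subunit that couples striatal receptors to adenylyl cyclase, was at 938, 613 and 592 CPM in wild-type and 622, 407 and 383 CPM in rpS6P-/- libraries of the Acb, and at 698, 426 and 668 CPM and 790, 1015 and 1012 CPM in the DS. It overlapped between genotypes in the Acb and not in the DS, with an interaction of -1.26 ± 0.30 (adjusted p = 0.0705 in edgeR). *Arpp21* had an interaction of -0.99 ± 0.28, *Drd2* of -0.68 and *Adora2a* of -0.52. Of 9 oligodendrocyte markers, 4 were below 0 at the threshold, led by *Mobp* (-1.27 ± 0.31), and 0 above 0.

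Enzymes of central carbon metabolism had interactions above 0. All 34 tested enzymes of glycolysis and the TCA cycle lay above 0, 20 of them at the unadjusted threshold (58.8%, against 6.33% of all genes) and 0 below it, with medians of 0.49 in the Acb, -0.05 in the DS and 0.57 for the interaction. In 25 of the 34 the Acb effect lay above 0 and the DS effect below 0, as in 23.9% of all genes. For glycolysis, which splits glucose to pyruvate, the class median of each library was -0.36, 0.02 and -0.42 in Acb wild-type, 0.19, 0.07 and 0.50 in Acb rpS6P-/-, 0.09, 0.29 and -0.07 in DS wild-type and 0.14, -0.17 and -0.09 in DS rpS6P-/- libraries. The Acb genotypes did not overlap and the DS genotypes did. Relative to the DS, the median level of glycolytic mRNAs in the Acb was -0.35 in wild-type mice and 0.28 in rpS6P-/- mice.

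*Eno2*, the neuronal enolase, was at 510, 688 and 532 CPM in wild-type and 831, 836 and 1310 CPM in rpS6P-/- libraries of the Acb, and at 677, 792 and 664 CPM and 818, 637 and 599 CPM in the DS. It was higher in the Acb without overlap and overlapped in the DS, with an interaction of 0.84 ± 0.26 (adjusted p = 0.15 in edgeR). *Pfkp*, the platelet-type phosphofructokinase, was the member that did not overlap in either region, at 109, 108 and 106 CPM against 118, 119 and 131 CPM in the Acb and at 225, 222 and 209 CPM against 162, 169 and 141 CPM in the DS. Its interaction was 0.66 ± 0.21. *Pfkl* had an interaction of 1.04 ± 0.28, *Aldoa* of 0.85 ± 0.28 and *Pkm* of 0.71 ± 0.23. In the TCA cycle all 18 members lay above 0 and 9 were at the threshold (median 0.51), among them the malate dehydrogenases *Mdh2* (0.87 ± 0.27) and *Mdh1* (0.72), *Pdha1* of the pyruvate dehydrogenase complex (0.68) and fumarase, *Fh1* (0.74). Of the members of both pathways, 0 reached an adjusted p of 0.05 in edgeR, and 3 did in DESeq2.

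The cytosolic aminoacyl-tRNA synthetases, which charge tRNAs for translation, had all 20 members above 0, 10 of them at the unadjusted threshold (50%), with medians of 0.36 in the Acb, -0.16 in the DS and 0.56 for the interaction. Library medians were -0.29, -0.08 and -0.28 in Acb wild-type and 0.03, 0.15 and 0.33 in Acb rpS6P-/- libraries, and 0.17, 0.09 and 0.03 in DS wild-type and 0.10, -0.12 and -0.17 in DS rpS6P-/- libraries, which overlap in the DS only. *Wars* had an interaction of 1.07 ± 0.30, *Aars* of 0.91 ± 0.26 and *Sars* of 0.83 ± 0.24. *Yars* was at 51.1, 70.9 and 54.0 CPM in wild-type and 87.4, 81.7 and 112 CPM in rpS6P-/- libraries of the Acb, and at 94.8, 80.9 and 74.1 CPM and 80.6, 74.6 and 59.7 CPM in the DS. It was apart in the Acb and overlapped in the DS (0.89 ± 0.26).

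**Figure D3:**
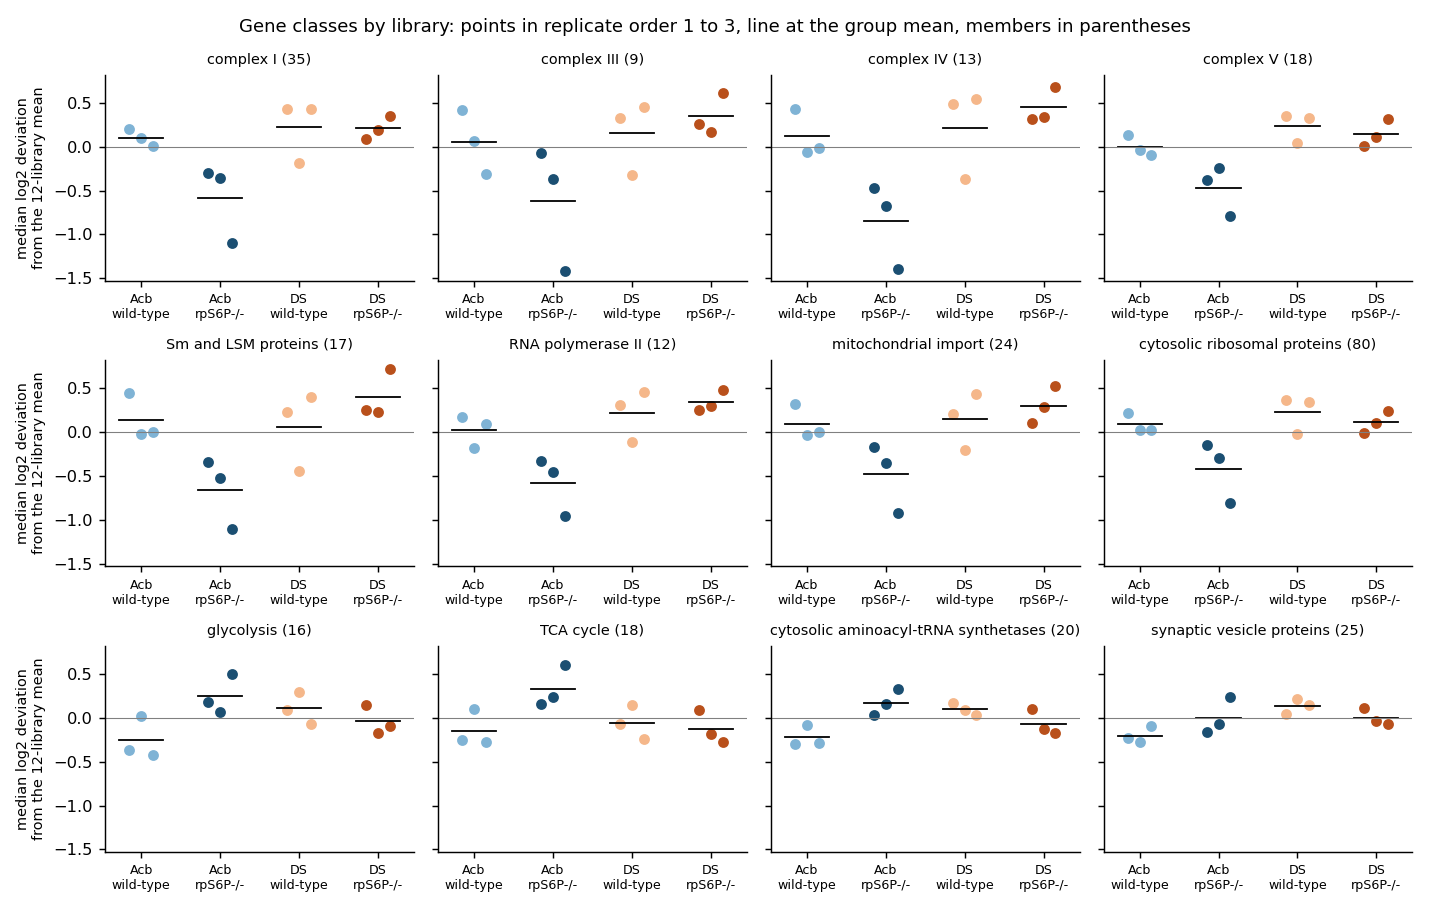
Median log2 deviation of 12 gene classes from the mean of the 12 libraries (vertical axis), 1 point per library in replicate order, with a line at each group mean. Acb rpS6P-/- replicate 3 is the lowest library in the respiratory, Sm and LSM, polymerase, import and cytosolic ribosomal classes, before removal of a length trend that turns complex III, complex V and the ribosomal class to the other side of 0. The glycolysis, TCA cycle and synthetase medians are higher in all 3 Acb rpS6P-/- than in the 3 Acb wild-type libraries.

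Protein folding complexes divided between their small and large parts. Of 13 prefoldin and CCT subunits, which together fold actin and tubulin, 6 were above 0 at the unadjusted threshold, among them *Cct3* (0.72), *Cct6a* (0.71) and *Cct7* (0.75), and 2 were below 0, the prefoldins *Pfdn1* (-1.11 ± 0.33) and *Pfdn4* (-1.10 ± 0.33). The class median was 0.47. The V-type proton ATPase, which acidifies vesicles, was divided too. Of its 18 subunits 11 lay above 0 and 7 below 0, and at the unadjusted threshold 4 were above 0 and 5 below 0. The median was 0.34, which was 0.21 without Acb rpS6P-/- replicate 3 or DS wild-type replicate 1 and 0.15 without DS wild-type replicate 2. The larger subunit *Atp6v1b2* had an interaction of 0.80 ± 0.25. The small subunit *Atp6v1f* was at 210, 137 and 147 CPM in wild-type and 115, 102 and 68.5 CPM in rpS6P-/- libraries of the Acb, and at 196, 137 and 210 CPM and 229, 219 and 350 CPM in the DS, without overlap in either region (-1.35 ± 0.31). HSP70 and HSP90 chaperones had a median of 0.40 with 5 of 14 above 0 at the threshold, *Hspa8* among them (0.54).

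Synaptic and activity-related genes were above 0 in part. Of 25 synaptic vesicle proteins, 5 were above 0 at the unadjusted threshold (20%) and 0 below 0, with a median of 0.36, among them the synapsins *Syn2* (0.78) and *Syn1* (0.80 ± 0.25), which tether vesicles. *Stx1a*, a SNARE of the plasma membrane, had an interaction of 0.54. The class median was 0.19 without DS wild-type replicate 2 and 0.24 without DS rpS6P-/- replicate 3. At the unadjusted threshold 3 of 19 postsynaptic density scaffolds were above 0 and 0 below 0, 0 of 23 glutamate receptors in either direction, and 1 of 23 sodium and calcium channels in each. Of 18 immediate early genes, which neuronal activity induces, 15 lay above 0 and 3 below 0 (median 0.39). At the unadjusted threshold 6 were above 0 (33.3%) and 0 below 0, led by *Junb* (1.29 ± 0.38) and *Egr4* (1.38 ± 0.43). The median of the immediate early genes was 0.09 without Acb rpS6P-/- replicate 3, 0.23 without Acb wild-type replicate 2, and 0.61 without Acb wild-type replicate 1 or DS rpS6P-/- replicate 1. Spectrins and ankyrins, which hold the membrane skeleton of axons, had a median of 0.23. Of these 15 genes 13 lay above 0, 5 of them at the unadjusted threshold (33.3%). Of 21 genes of mTOR and S6 kinases, 2 were above 0 at the threshold (9.52%, near the 6.33% of all genes) and 0 below 0. These were *Mlst8* (0.75) and *Rptor* (0.79), while 12 of the 21 lay below 0 in all and the median was -0.13. Cortical excitatory neuron markers, whose level differs between the regions in wild-type mice too, had a median of 0.64 with 1 of 6 at the threshold (0.98 without Acb wild-type replicate 1 and 0.27 without Acb wild-type replicate 3), and whether carry-over of cortex has a part in the synaptic values was not tested.

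**Figure D4:**
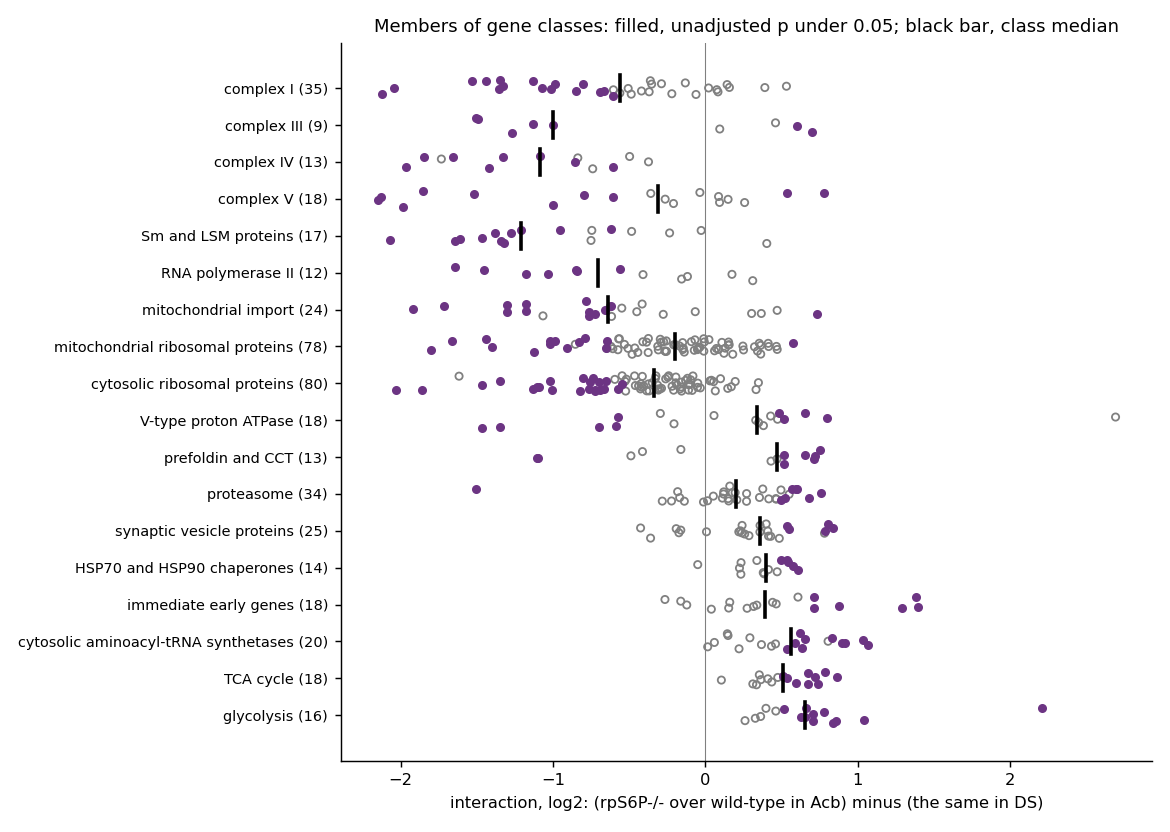
Interaction of every tested member (points, horizontal axis, log2) of 18 gene classes, with the number of members in parentheses, filled where the unadjusted p is under 0.05 and with a black bar at the class median. Respiratory, Sm and LSM, polymerase and import classes extend to about -2, while all 34 glycolysis and TCA cycle enzymes and all 20 synthetases lie above 0.

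The 12 genes with the lowest p above 0 belonged to no single class. *Nab2*, a corepressor of the EGR transcription factors, was at 30.4, 27.5 and 25.5 CPM in wild-type and 50.3, 32.2 and 55.3 CPM in rpS6P-/- libraries of the Acb, and at 44.8, 51.6 and 44.7 CPM and 31.4, 31.8 and 28.1 CPM in the DS. The genotypes did not overlap in either region and lay in opposite order. Its interaction was 1.348 ± 0.28 (adjusted p = 0.0518 in edgeR and 0.00543 in DESeq2). *Lrrc16b*, an actin regulator, was at 7.62, 8.74 and 6.34 CPM in wild-type and 15.4, 10.99 and 14.5 CPM in rpS6P-/- libraries of the Acb, and at 7.64, 9.90 and 9.35 CPM and 4.61, 4.24 and 2.62 CPM in the DS. It too did not overlap in either region, with an interaction of 2.08 ± 0.43. *Apba2*, an adaptor of the amyloid precursor protein, had an interaction of 1.32 ± 0.30 and was apart in the Acb only. The others with an adjusted p between 0.0705 and 0.108 in edgeR were *Pacsin2* and *Dctn2* of endocytosis and dynein transport (1.13 and 1.10), *Bag6* (1.11), *Vat1* (1.07), *Nup85* (1.20), *Ddx54* (1.29), *Rasl11b* (1.08) and *Nefh*, the heavy neurofilament (1.26). *Calcr*, the calcitonin receptor, was at 8.99 to 18.2 CPM in the Acb and at 0 to 1.32 CPM in the DS, so that its interaction rests on a DS level near 0.

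The study names 20 genes for their levels in DS heavy polysomal fractions, chosen on these samples, so their DS effects are not independent evidence. At the unadjusted threshold for the interaction, 14 of them had an Acb effect below 0 and a DS effect above 0, against 7.14% of all genes. The interaction contains the DS effect, so this count is not independent of the choice either. The median Acb effect of all 20 was -0.92. *Ndufa3*, *Ndufa1*, *Atp5e*, *Usmg5*, *Tomm7*, *Timm8b*, *Mt1*, *Mt2*, *Tmsb10*, *Pcp4* and *Sat1* are among the 14. Not all 20 had this pattern. *Sncb*, beta-synuclein, was at 512, 447 and 527 CPM in wild-type and 423, 426 and 304 CPM in rpS6P-/- libraries of the Acb, and at 1176, 940.5 and 840.2 CPM and 483, 628 and 680 CPM in the DS, so that rpS6P-/- libraries were the lower ones in both regions.

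The interaction varied with the length of the transcript. Among genes with at least 50 reads on average, the 46 with transcripts under 500 bases had a median interaction of -1.23, and 36 of them (78.3%) were below 0 at the unadjusted threshold. Transcripts from 500 to under 1000 bases had a median of -0.57 (37.9% of 564 genes below 0 at the threshold), and those from 1000 to under 2000 bases of -0.07. The medians were 0.06 from 2000 to under 4000 bases, 0.07 from 4000 to under 8000 and -0.03 at 8000 or more. The Acb effect of the shortest transcripts had a median of -0.86 and the DS effect of 0.41. As a description over 12003 genes, which share the same libraries, transcript length had a Spearman correlation of 0.32 with the Acb effect, 0.12 with the DS effect and 0.15 with the interaction. For the length of the coding sequence these were 0.51, 0.04 and 0.34, and 0.21 with the interaction after the transcript length trend was removed. The median deviation of transcripts under 500 bases was 0.54, -0.01 and -0.13 in Acb wild-type, -0.29, -0.65 and -1.24 in Acb rpS6P-/-, 0.19, -0.30 and 0.53 in DS wild-type and 0.35, 0.39 and 0.77 in DS rpS6P-/- libraries. The genotypes were apart in the Acb and overlapped in the DS.

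With a trend on transcript length removed from each library, the medians of the classes listed next with interactions below 0 lay nearer to 0 or above it. Some were still well below the -0.01 of all genes, and those of the metabolic enzymes stayed above 0.5 in this fit. The median interaction of the respiratory complexes was then -0.07, of complex IV -0.38, of complex III 0.03, of complex I -0.08, of Sm and LSM proteins -0.52, of RNA polymerase II -0.26, of mitochondrial import -0.43, of the metallothioneins -0.97 and of cytosolic ribosomal proteins 0.19, on the other side of 0. The median was 0.72 for glycolysis, 0.51 for the TCA cycle and 0.55 for the synthetases. Some other classes below 0 did not move nearer to 0. Thymosins, profilins and cofilins were at -0.33 (-0.32 before removal) and cAMP and DARPP-32 signalling at -0.12 (-0.10). The mTOR and S6 kinase genes were at -0.16 (-0.13) and choroid plexus markers at -1.04 (-0.97). With a coding length trend removed instead, the median was -0.26 for complex IV, -0.42 for Sm and LSM proteins and -0.21 for mitochondrial import. RNA polymerase II was then at -0.04, near the -0.01 of all genes, and the metallothioneins at -0.75. Glycolysis was at 0.62, the TCA cycle at 0.42 and the synthetases at 0.43. In the fit with the transcript length trend removed, 13 genes passed an adjusted p of 0.05 in edgeR, 12 below 0 and 1 above 0. Those named above were *Nkain2* (-1.23), *Sat1* (-1.38), *Ido1* (-1.41), *Nop10* (-1.72), *Snrpg* (-1.78), *Ndufv3* (-1.26), *Cox7a2* (-1.10) and, above 0, *Nab2* (1.34), with adjusted p between 0.0445 and 0.0481 in edgeR. *Ndufa3* was at -1.002 (adjusted p = 0.081 in edgeR). The removal takes out any effect of the genotype that itself follows length, and whether recovery of short mRNAs from the gradient or from the library preparation differed between groups was not tested.

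**Figure D5:**
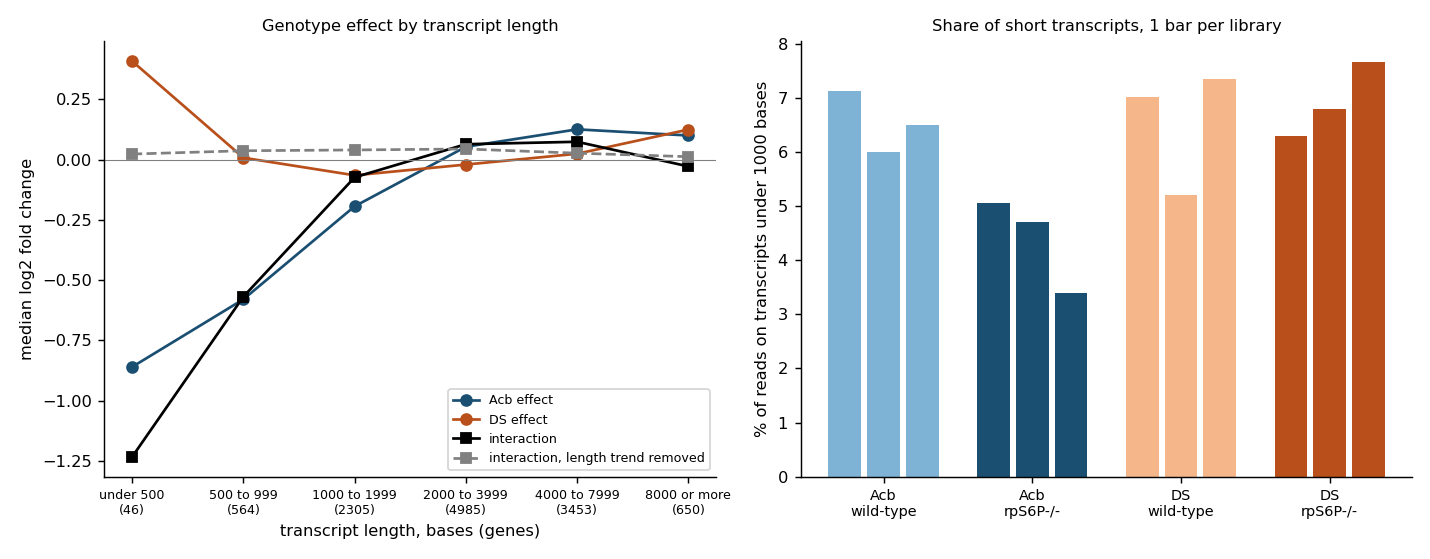
Left, median log2 values by transcript length class (number of genes in parentheses) of the Acb effect, the DS effect, the interaction and the interaction with the length trend removed. Right, share of reads on transcripts under 1000 bases in percent, 1 bar per library in replicate order from 0, which is lowest in Acb rpS6P-/- replicate 3 at 3.40%.

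Whole lysates of the same 4 groups had medians closer to 0 for the respiratory, Sm and LSM, ribosomal, metabolic and synthetase classes. In a fit of all 24 libraries with 17365 genes, 930 genes (5.36%) had an interaction of genotype and region in whole lysates at the unadjusted threshold and 0 at an adjusted p of 0.05. Class medians in lysates were 0.02 for the respiratory complexes, -0.08 for complex IV, -0.05 for Sm and LSM proteins and 0.03 for cytosolic ribosomal proteins. They were 0.10 for glycolysis, 0.01 for the TCA cycle and 0.08 for the synthetases. Some marker lists differed from this. Lysate medians were -0.28 for astrocyte markers (0.11 in heavy polysomal fractions), 0.17 for interneuron markers (0.03) and 0.46 for cortical excitatory neuron markers (0.64). The difference between the heavy polysomal and the lysate interaction was tested directly as a genotype by region by fraction term. It was below 0 for 979 genes (5.64%) and above 0 for 644 (3.71%) at the unadjusted threshold, and 0 genes passed an adjusted p of 0.05 in edgeR against 3 in DESeq2. Both fits treat heavy and lysate libraries as independent, whereas per the study's methods input was kept from each sample before its gradient. With the heavy and lysate library of a number paired, edgeR passed 187 genes. At the unadjusted threshold 1037 were then below 0 and 559 above 0. In the unpaired edgeR fit the term was -2.15 ± 0.44 for *Atp5e*, -2.06 ± 0.49 for *Snrpg*, -2.04 ± 0.41 for *Pcp4*, -1.79 ± 0.38 for *Cox7a2* and -1.68 ± 0.40 for *Ndufa3*, and it was 1.65 ± 0.38 for *Nab2*. By class, its median was -0.72 for the respiratory complexes, -1.17 for Sm and LSM proteins, 0.49 for glycolysis and 0.40 for the synthetases.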

How the data were processed

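Raw read counts per gene were used as the authors deposited them, one column per library. Per the study's methods, the authors sequenced stranded poly-A libraries, aligned reads to mm10 with TopHat 2.0.13 and Bowtie 2.2.3, and counted them with HTSeq 0.6.1p1 against UCSC genes. Several sequencing runs were made because of bacterial contamination.

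Of 24079 genes, the 16880 with at least 15 reads over the 12 heavy polysomal libraries were tested with edgeR 4.0.16 (R 4.3.3, TMM normalization, quasi-likelihood F test, 4 group means, Benjamini-Hochberg adjustment). DESeq2 1.42.0 and limma 3.58.1 served as alternatives. The genotype by region by fraction term used all 24 libraries. Libraries are pools of mice, so p-values measure the spread between pools. The length trend was a loess curve (span 0.5) on transcript length, from genes with at least 50 reads on average. Class medians by library use log2 CPM with a prior count of 2.

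Genes, classes and tests were chosen with earlier results of these data known. Named genes are those with an adjusted p under 0.05, the 12 of lowest p in each direction with at least 50 reads on average, up to 4 members of lowest p per class, *Rps6* and 20 genes the study names. *Aldoa*, *Cct7*, *Mdh1*, *Tomm34*, *Uqcrc1* and *Uqcrc2* fall outside this rule and were chosen after their values were seen. Removal of a coding length trend was added after seeing the data.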

Additional observations from a re-analysis of the deposited data

Results flagged for a closer look

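*Ndufa3* is listed because the effect of the genotype differed between the regions by the test of the difference itself, with an interaction of -2.12 (adjusted p = 0.0225 in edgeR). For the following classes, the class median of every rpS6P-/- library lay on one side of the wild-type mean in the Acb and on the opposite side in the DS, and this difference was not tested. The median interaction was -1.002 for complex III, -1.08 for complex IV, -0.70 for RNA polymerase II, -1.21 for Sm and LSM proteins, -1.91 for the metallothioneins and -1.79 for the 20 genes that the study names in the DS, which were chosen on these samples. It was 0.40 for HSP70 and HSP90 chaperones, 0.23 for spectrins and ankyrins, 0.36 for synaptic vesicle proteins and 0.64 for cortical excitatory neuron markers, whose median in whole lysates was 0.46 and ranged from 0.27 to 0.98 in heavy polysomal fractions with 1 library left out. With the transcript length trend removed, the median of complex III was 0.03, on the other side of 0, and that of RNA polymerase II was -0.26. With the coding length trend removed these were -0.08 and -0.04. Without Acb rpS6P-/- replicate 3 the median was -0.75 for complex III, -0.85 for complex IV and -0.54 for RNA polymerase II. It was then -0.98 for Sm and LSM proteins and -1.55 for the metallothioneins.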

How the results depend on the processing

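The number of genes with an adjusted p under 0.05 for the interaction, 1 with edgeR, was 0 with the filterByExpr filter or robust estimation, 353 without a filter, 236 with DESeq2, 19 with limma-voom, 46 with bias-adjusted quasi-likelihood, 433 with all 24 libraries in one fit, 13 with the transcript length trend removed and 8 with the coding length trend removed. The cause was not tested. It was 117 with a replicate block on the number, 479 with a replicate block within genotype and 61 with a replicate block and the length trend removed. The numbers were not taken to pair the libraries, since shared mice are not stated. Correlations of deviations between same-numbered libraries ranged from -0.28 to 0.29 and 3 of 18 were over 0.1. Those 18 pairs include libraries of different genotypes, which cannot share mice. Between same-numbered Acb and DS libraries of the same genotype the correlations ranged from -0.24 to 0.20, which does not decide whether mice were shared.

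Leaving out 1 library gave 0 to 183 genes. It gave 0 without Acb wild-type replicate 1, Acb rpS6P-/- replicate 3, DS wild-type replicate 2, or DS rpS6P-/- replicate 2 or 3, 94 and 58 without Acb wild-type replicates 2 and 3, 183 and 3 without Acb rpS6P-/- replicates 1 and 2, and 2 and 160 without DS wild-type replicates 1 and 3. At the unadjusted threshold the count below 0 ranged from 847 to 1568 and that above 0 from 576 to 1349 (688 without Acb wild-type replicate 3, 576 without Acb rpS6P-/- replicate 3, 591 without DS wild-type replicate 2, 667 without DS rpS6P-/- replicate 3). Genes lower in the Acb and higher in the DS numbered 823 to 1470, and the reverse 519 to 1302.

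Some values lay on the other side of 0 with the length trend removed, and with the replicate block as well: complex III 0.034 and 0.048, complex V 0.091 and 0.092, mitochondrial ribosomal proteins 0.046 and 0.045, cytosolic ribosomal proteins 0.19 and 0.19, *Rps21* 0.015 and 0.016, *Rps28* 0.25 and 0.25, and *Rps6* 0.48 and 0.48. The respiratory complexes were at -0.074 and -0.062. With the coding length trend removed, complex V was at 0.18, mitochondrial ribosomal proteins at 0.083, cytosolic ribosomal proteins at 0.076, *Rps6* at 0.11, the respiratory complexes at -0.047 and the synthetases at 0.43. *Rps6* was at 0.015 with a GC trend removed and at -0.13 to 0.055 with 1 library left out. With 1 library left out the median ranged from -0.74 to -0.39 for the respiratory complexes, -0.34 to -0.08 for mitochondrial and -0.47 to -0.18 for cytosolic ribosomal proteins, 0.40 to 0.66 for glycolysis and the TCA cycle and 0.46 to 0.61 for the synthetases.

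The genotype by region by fraction term passed 3 genes with DESeq2, 23 with a replicate block on the number, 187 with the heavy and lysate library of a number paired, and 0 to 90 with 1 library left out (4, 31, 90 and 64 without Acb wild-type replicate 2 or 3, Acb rpS6P-/- replicate 1 or DS wild-type replicate 3).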
